A study of Mus musculus with 12 samples.

Results

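A change in messenger RNA (mRNA) level between cell states can come from a change in how fast a gene is transcribed or from a change in how long its transcripts last. The comparison described here set the second apart from the first, gene by gene, between embryonic stem cells of the mouse (ESCs) and the epiblast-like cells made from them (EpiLCs). It was the interaction of cell type and assay: the EpiLC minus ESC change in total RNA (the mRNA change) minus the EpiLC minus ESC change in newly made RNA (the nascent change), on the log2 scale, called the stability change here. The genes followed were the 8519 that code for a protein and averaged 10 CPM (read counts scaled to the size of the library) or more in the 6 nascent and in the 6 total libraries. They were chosen from 12312 protein-coding and 14731 genes in all that were abundant enough for the fit.

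Transcripts are removed by shortening of the poly(A) tail, decapping and digestion from the ends, and sequences in the 3′ untranslated region (3′ UTR), such as AU-rich elements and microRNA sites, are known to speed that removal. Cells that take up the uridine analogue 4-thiouridine (4sU) build it into the RNA they are making, so that a short pulse marks new transcripts. With transcription level and more stable transcripts, total RNA gains over 4sU RNA, and with less stable transcripts it loses. The ratio reads stability only where synthesis and decay are in balance, and whether they were in cells on their way between states was not tested.

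ESCs of a V6.5 reporter line (microRNA-driven mCherry and GFP) were held in the naive state in serum medium with LIF and the inhibitors PD0325901 and CHIR99021 (2i). EpiLCs came from the same cells 56 h after LIF and 2i were withdrawn. All samples, ESC and EpiLC, took up 500 µM 4sU for 30 min, and each extract was divided into a biotin-captured share (4sU libraries) and a share freed of ribosomal RNA (total libraries). Each of the 4 groups held 3 libraries. Nothing in the labels says that they came from separate cultures, so p-values measure the spread between these samples only. A 4sU and a total library of one cell type and number are paired below as a culture for values of total over 4sU.

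The 4sU libraries held 3097693 to 5385644 reads counted to genes and the total libraries 9300845 to 21975684, so the 4sU arm carried the larger counting error. Both ESC replicate 3 libraries stood apart from their group. ESC total replicate 3 differed from the other 2 ESC total libraries by a chi-square per degree of freedom of 27.5 and 28.6, against 1.39 to 10.5 for every other pair of replicates, and the 2 highest of those (8.44 and 10.5) were the pairs with ESC 4sU replicate 3. Results are given with and without these 2 libraries. The markers went with the labels. Total RNA of 10 of 10 naive genes was lower in EpiLCs (limma-voom adjusted p under 0.05 and a log2 change past 1), with a summed level of 3276 to 3587 CPM in ESC and 316 to 325 CPM in EpiLC total libraries, and 6 of 7 formative or primed genes were higher. Among markers of other cells, 15 fibroblast genes summed to 13.9 to 23.3 CPM in ESC and 33.9 to 36.1 CPM in EpiLC total libraries. Of these 3 were higher, 1 was lower and 10 were too low to test, and 3 had no read in the EpiLC total libraries. The 7 primitive endoderm genes summed to 4.56 to 11.1 CPM and 17.8 to 20.5 CPM, with 2 higher (Dab2, by 4.87, and Gata4) and 1 lower. Of 6 primitive streak genes 2 were higher (T by 2.35 and Mixl1 by 2.51), of 5 neural genes 1 (Pax6, by 5.41), and of 5 trophoblast genes 1 was higher (Krt7, by 2.15) and 1 lower. Streak genes summed to 16.6 to 25.4 CPM and 20.1 to 31.3 CPM, neural genes to 62.4 to 67.9 CPM and 64.1 to 84.4 CPM, and trophoblast genes to 39 to 39.2 CPM and 10.1 to 11.8 CPM. The part of such cells in the results was not tested. Fewer cells of a type and less RNA per cell cannot be told apart in such bulk samples.

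For most genes the 2 arms differed little. Many genes moved little in either arm, with lower and upper quartiles of -0.45 and 0.31 (nascent) and -0.43 and 0.32 (mRNA). The stability change lay between -0.5 and 0.5 for 7302 (85.7%) of the 8519 genes, with a median of 0.01 against 0.11 over all genes kept. A nascent change past the call (limma-voom adjusted p under 0.05 and a log2 change over 1 in either direction) was found for 1424 genes (16.7%, background over all genes kept 25.5%) and an mRNA change for 1467 (17.2%, background 27.6%). Both were called for 1152 genes (13.5%), always in one direction, and the share over all genes kept was not counted. The plot of nascent against mRNA change shows a cloud along the diagonal.

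The stability change itself passed the call for 72 genes (0.845%), against a background of 1.54% over all genes kept. It was higher in EpiLCs for 47 (0.552%, background 1.24%) and lower for 25 (0.293%, background 0.305%). The split depended on the scaling. All libraries were put on one trimmed-mean (TMM) scale. The split became 28 higher and 37 lower with median-of-ratios factors. Setting the TMM scale separately for 4sU and total libraries gave 35 and 33, and unscaled library totals gave 63 and 12. It was 15 and 43 when no expression filter was set. Single libraries also moved it, to 83 higher without ESC total replicate 3, 31 higher without ESC total replicate 2, 15 lower without EpiLC total replicate 2 and 16 lower without EpiLC 4sU replicate 1. Of the 72, 53, 60 and 59 kept the call in the 3 other scalings, in that order. Of the genes named below, Fam122b, Ttyh1, Shank3, Slc43a1 and Zup1 fell under a change of 1 with median-of-ratios factors (0.97, 0.93, 0.99, 0.93 and 0.96). With library totals Mycn, Myo1c, Serpinh1, Zfp7, Hes1, Pou5f1, Scd1, Ap2m1 and Syap1 lay between -0.98 and -0.94, and Aacs also lost its call. Total over 4sU did not overlap between the 3 ESC and the 3 EpiLC cultures for any of the 72. Cultures did not overlap for 1549 (18.2%) of the 8519 genes upward and 1509 (17.7%) downward, against a background of 21.1% and 12.1%.

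The 72 calls were divided by which arm carried them. Level was taken as a log2 change under 0.5 in either direction, and moved as a limma-voom adjusted p under 0.05. Total RNA was level and 4sU RNA moved for 13 genes (background 0.231%). 4sU RNA was level and total RNA moved for 22 genes (background 0.462%). Both changed by 0.5 or more in one direction for 33 genes (background 0.638%) and in opposite directions for 4 (background 0.21%). These classes rest on the same contrasts as the calls, so they are a description with no test. Only 22 of the 72 were called whichever of the 12 libraries was left out, 3 of the first class and 6 of the second, and 55 kept it with DESeq2. Without both ESC replicate 3 libraries 62 kept the call, and 61 kept call and class. The number of calls itself grew there, to 87 higher and 38 lower. Without ESC total replicate 3 alone the first 3 classes held 21, 38 and 51 genes. The first held 6 without EpiLC total replicate 2, the second 14 without EpiLC 4sU replicate 1, and the third 20 or 21 without EpiLC 4sU replicate 2 or 3 or EpiLC total replicate 3.

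**Figure D1:**
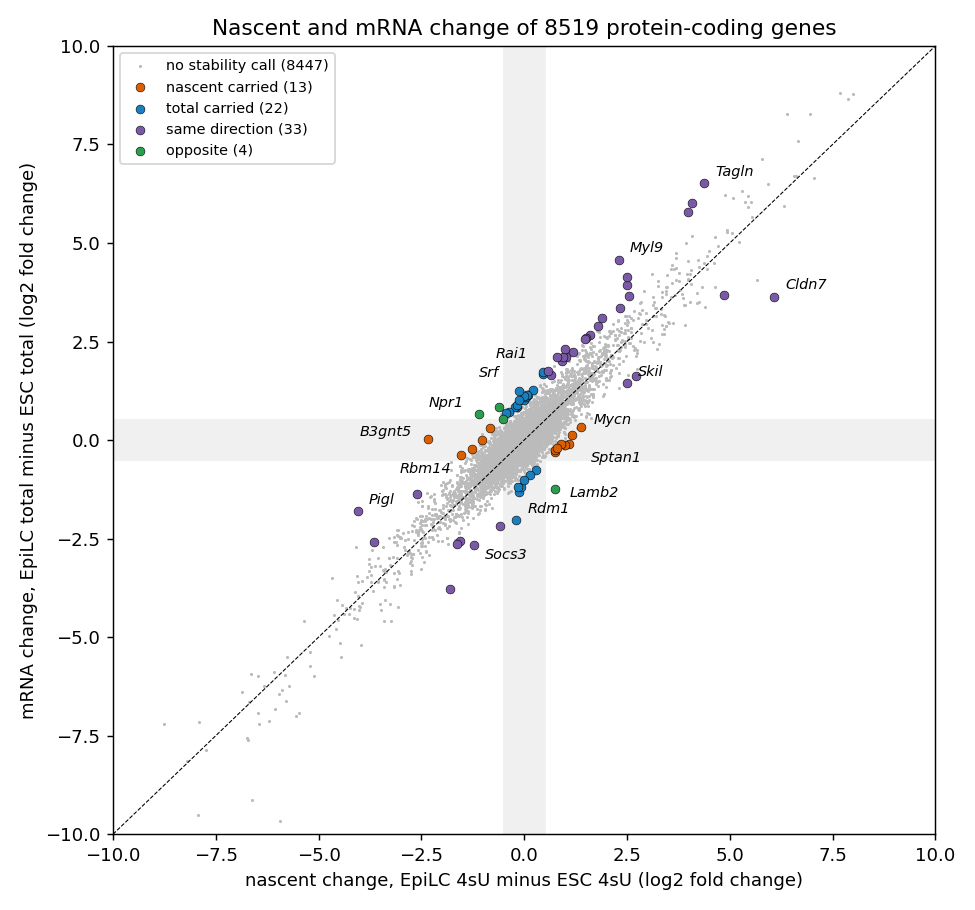
Each point is 1 of 8519 genes, with the nascent change on the x axis and the mRNA change on the y axis, both as log2 fold changes of EpiLC against ESC. The dashed line marks equal change, the grey bands mark a change under 0.5, and coloured points are the 72 genes with a stability call by class: 13 in the horizontal band, 22 in the vertical band, 33 away from both with one sign and 4 with opposite signs.

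Total RNA stayed level while 4sU RNA fell for 5 genes with a higher stability change. The largest of these was in B3gnt5, which encodes the glycosyltransferase that starts the lacto-series glycosphingolipids. The others were Rbm14, an RNA-binding coactivator, AU041133, Fam122b and Ttyh1, a membrane protein of the tweety family. Their nascent changes had a median of -1.28 and their mRNA changes a median of 0.00.

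B3gnt5 (ENSMUSG00000022686.14, chromosome 16, 19760208 to 19772753, plus strand, mm10) had 194, 215 and 177 CPM in the ESC 4sU libraries and 32.9, 41.5 and 42.3 CPM in the EpiLC 4sU libraries. Total RNA was 97.3, 109 and 102 CPM in ESCs and 101, 103 and 107 CPM in EpiLCs. All EpiLC 4sU libraries lay far below all ESC 4sU libraries, while the total libraries of the cell types interleaved. The nascent change was -2.34 (95% interval -2.59 to -2.09) and the mRNA change 0.02 (-0.17 to 0.21). The stability change of 2.36 ± 0.15 (SE, limma-voom adjusted p = 2.22e-06) ran from 2.24 to 2.42 over the 12 fits that left out a library. Of 37 listed glycosyltransferases 3 were higher by the limma-voom adjusted p alone and 0 lower (background 2.72% higher and 1.88% lower), with a list median of 0.10. Those other than B3gnt5, chosen after their values were seen, had this form with smaller values. St3gal2, a sialyltransferase, changed by -0.79 in 4sU and 0.16 in total RNA, a stability change of 0.95 (limma-voom adjusted p = 0.015). B3gntl1 changed by -1.26 and -0.35, a stability change of 0.92 (limma-voom adjusted p = 0.0443), and its total RNA also fell (limma-voom adjusted p = 0.0228). Its stability change missed the limma-voom adjusted p with median-of-ratios factors (0.0555) and with TMM set per assay (0.0523).

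Rbm14 (chromosome 19, 4800569 to 4811634) had 495, 382 and 435 CPM in ESC and 154, 146 and 151 CPM in EpiLC 4sU libraries. In total libraries it had 126, 123 and 103 CPM in ESCs and 89.6, 92.1 and 89.8 CPM in EpiLCs, so that mRNA also fell a little (log2 change -0.37, limma-voom adjusted p = 0.00437). The groups did not overlap in either assay, and the nascent drop of -1.53 was the larger. The stability change was 1.16 ± 0.14 (limma-voom adjusted p = 0.00135). Exons of Rbm14 overlap Gm21992 on the same strand, which makes its values uncertain. The calls of the other 3 genes depended on single libraries. AU041133 (1.15) lost its call without ESC 4sU replicate 1 (0.97). Fam122b (1.05) lost it in 8 of 12 fits and Ttyh1 (1.01) in 11 of 12, with limma-voom adjusted p up to 0.11 and 0.145.

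The mirror image, 4sU RNA higher with total RNA level, was seen in 8 genes with a lower stability change. They were Sptan1, Tapbp, Mycn, Myo1c, Serpinh1, Zfp7, Hes1 and Aacs, with stability changes of -1.18 to -1.01 and a median nascent change of 0.95. By known function they share no one role: Sptan1 is the alpha chain of non-erythroid spectrin, Myo1c a class I myosin, Tapbp loads peptides on MHC class I, and Serpinh1 is the collagen chaperone of the endoplasmic reticulum. Mycn and Hes1 encode transcription factors, the first a Myc family member and the second a repressor downstream of Notch, and both are known for short-lived transcripts.

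Sptan1 (chromosome 2, 29965560 to 30031451) had 166, 185 and 172 CPM in ESC and 409, 359 and 344 CPM in EpiLC 4sU libraries. Its total RNA lay between 973 and 1051 CPM in ESCs and between 922 and 952 CPM in EpiLCs, with the EpiLC libraries all below the ESC ones and by little. The nascent change of 1.08 (0.91 to 1.26) stood against an mRNA change of -0.09 (-0.24 to 0.05). The stability change of -1.18 ± 0.11 (limma-voom adjusted p = 0.000113) kept its call in all 12 fits without a library, the only one of the 8 to do so.

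Mycn (chromosome 12, 12936093 to 12941914) had 153, 169 and 137 CPM in ESC and 351, 328 and 358 CPM in EpiLC 4sU libraries. Total RNA was 78.4, 88.1 and 95.6 CPM in ESCs and 89.7, 94.3 and 102 CPM in EpiLCs, and these overlapped. The stability change was -1.04 ± 0.13 (limma-voom adjusted p = 0.00154). It was -0.91 without both ESC replicate 3 libraries, with a limma-voom adjusted p of 1.6e-05 but short of the fold needed, and at its smallest -0.97 without 1 of these. Hes1 (chromosome 16, 30065340 to 30067796) had 86.9, 90.1 and 87.2 CPM in ESC and 191, 139 and 171 CPM in EpiLC 4sU libraries, with total RNA of 34.6 to 36.2 CPM and 30.8 to 35.2 CPM. It changed by -1.01 ± 0.15 (limma-voom adjusted p = 0.00402), close enough to the fold threshold that 6 of 12 fits without a library fell short of it, down to -0.90.

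Serpinh1 (-1.03) rose in both arms, by 1.38 in 4sU and by 0.34 in total RNA (limma-voom adjusted p = 0.00455). Tapbp (-1.11), Myo1c (-1.04), Zfp7 (-1.01) and Aacs (-1.01), which activates acetoacetate for lipid synthesis, also lost the call in 2 to 8 of the 12 fits. Tapbp was -0.99 without EpiLC total replicate 2 and missed the adjusted p without EpiLC 4sU replicate 1 (limma-voom adjusted p = 0.0528). The start of Tapbp lies 8 bases from the end of the upstream gene on its strand. Of the 13 genes with level total RNA, 8 had a 95% interval of the mRNA change inside -0.5 to 0.5, and all 13 had one inside -1 to 1. Myo1c, Serpinh1 and Rbm14 passed the adjusted p for total RNA with changes under 0.5.

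**Figure D2:**
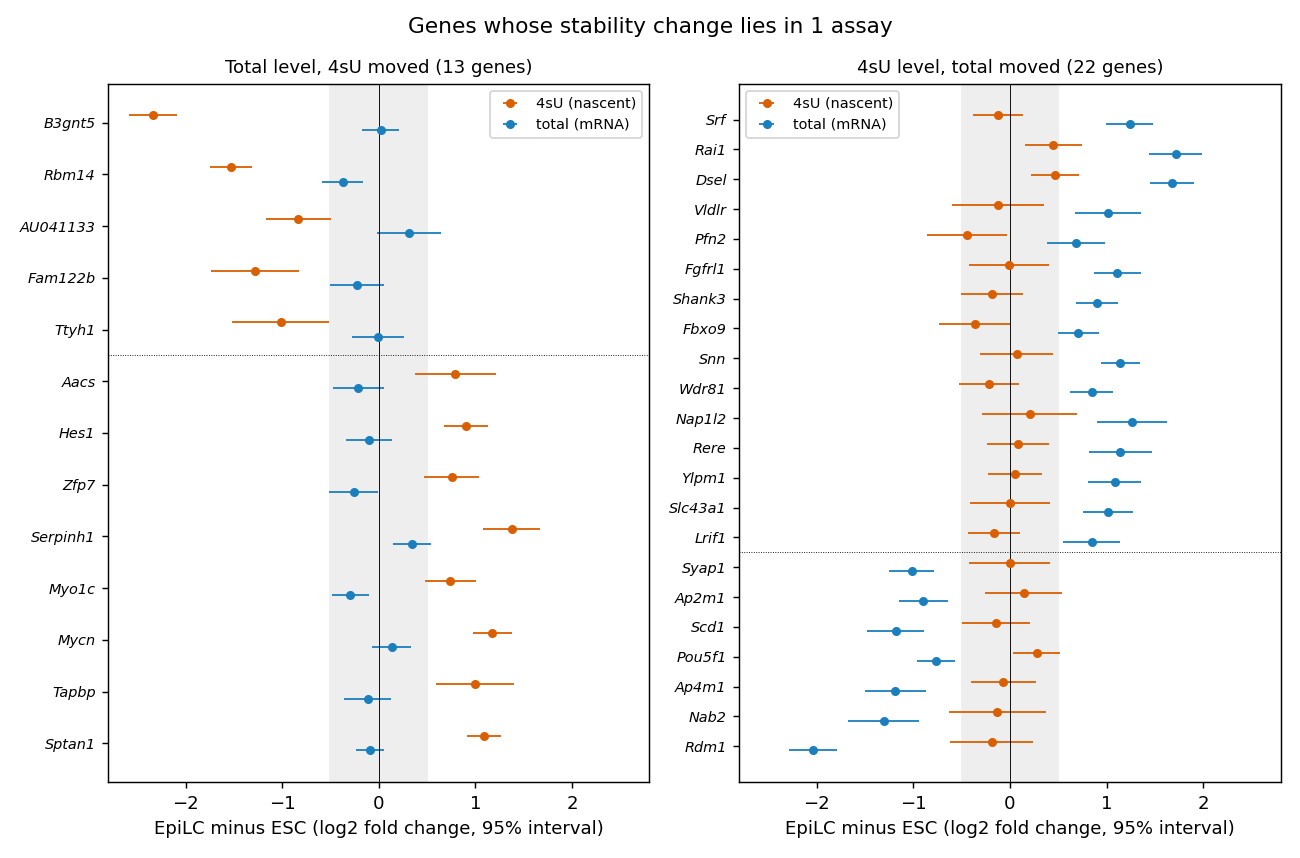
Nascent (orange) and mRNA change (blue) of the genes whose stability call lay in one assay, as log2 fold changes of EpiLC against ESC with limma-voom 95% intervals. The left panel holds the 13 genes with total RNA in the grey band of 0.5, the right panel the 22 genes with 4sU RNA in it, and the dotted line parts higher from lower stability. B3gnt5 and Rdm1 have their moving arm farthest from 0, at -2.34 and -2.04.

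The class with level 4sU RNA held 15 genes higher and 7 lower. That it was the larger of the pair depended on the fit, since both held 16 with median-of-ratios factors and 18 with DESeq2. With median-of-ratios factors 9 of the 15 higher genes lost the call and all 7 lower genes kept it, while with library totals all 15 and 3 of the 7 kept it. The higher genes were led by Srf, which encodes serum response factor, the transcription factor of actin and immediate early genes. Rai1, a chromatin-associated regulator, Dsel, an epimerase-like enzyme of dermatan sulfate, Vldlr, a lipoprotein receptor, Pfn2, an actin-binding profilin, Fgfrl1, an FGF receptor without a kinase domain, and Shank3, a synaptic scaffold protein, followed. Their nascent changes had a median of -0.01 and their mRNA changes a median of 1.08 over the 15 genes.

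Srf (chromosome 17, 46546839 to 46556162, minus strand) had 125, 151 and 175 CPM in ESC and 154, 139 and 116 CPM in EpiLC 4sU libraries. The total libraries held 58.1, 53.7 and 57.7 CPM in ESCs and 129, 136 and 135 CPM in EpiLCs. The 4sU libraries overlapped, and the total libraries did not overlap. The nascent change was -0.12 (-0.38 to 0.13) and the mRNA change 1.24 (1.00 to 1.48), which gave a stability change of 1.36 ± 0.17 (limma-voom adjusted p = 0.00127). It kept its call in all 12 fits without a library and was 1.27 without both ESC replicate 3 libraries.

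Rai1 (chromosome 11, 60105013 to 60199197) had 37.8, 46.8 and 46.1 CPM in ESC and 57.3, 63.5 and 56.4 CPM in EpiLC 4sU libraries. In total libraries it had 11, 12.2 and 16 CPM in ESCs and 44, 37.3 and 43.5 CPM in EpiLCs. Groups did not overlap in either assay, and the total arm moved more (1.72 against 0.45). Dsel (chromosome 1, 111858706 to 111864918) had much the same shape, with 34.5 to 41.4 CPM against 45.9 to 57.9 CPM in 4sU libraries and 11.6 to 13.7 CPM against 39.4 to 40.3 CPM in total libraries. Their stability changes were 1.26 ± 0.19 (limma-voom adjusted p = 0.00341) and 1.21 ± 0.16 (limma-voom adjusted p = 0.00159). Both also passed the adjusted p for the nascent change, the only 2 of the 22 to do so, and without both ESC replicate 3 libraries Dsel counted among the genes that moved in both arms.

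Shank3 (1.08) kept its call in all 12 fits. Fgfrl1 (1.12) lost it only without EpiLC 4sU replicate 2 (limma-voom adjusted p = 0.0559), Pfn2 (1.13) without EpiLC 4sU replicate 1 or 2, and Vldlr (1.14) in 10 of 12 fits (limma-voom adjusted p up to 0.0992). The 4sU libraries of Pfn2 did not overlap, with 22.8 to 33.2 CPM in ESCs and 17.1 to 22.1 CPM in EpiLCs. Its nascent change of -0.44 (-0.85 to -0.03, limma-voom adjusted p = 0.0651) was near the limit for level. Slc43a1, a transporter of large neutral amino acids, had 14 to 17.9 CPM in ESC and 13.4 to 16.6 CPM in EpiLC 4sU libraries. Its total RNA was 12.2 to 14.2 CPM and 22.2 to 29.4 CPM, with a stability change of 1.01 ± 0.23 (limma-voom adjusted p = 0.0247) that was lost in 8 of 12 fits.

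Total RNA fell while 4sU RNA stayed level for 7 genes. They were Rdm1, a protein with a RAD52 motif, Nab2, a corepressor of EGR transcription factors, Ap4m1 and Ap2m1, the medium subunits of adaptor complexes 4 and 2, Pou5f1, the pluripotency factor Oct4, Scd1, stearoyl-CoA desaturase, and Syap1. The median mRNA change was -1.18 and the median nascent change -0.07.

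Rdm1 (chromosome 11, 101627942 to 101636100) had 14.6, 18.2 and 21.3 CPM in ESC and 14.4, 17.3 and 14.3 CPM in EpiLC 4sU libraries. Its total RNA went from 76.6, 84.8 and 89.7 CPM in ESCs to 23.8, 17.8 and 19.9 CPM in EpiLCs. Only the total libraries set the cell types apart. The stability change of -1.85 ± 0.23 (limma-voom adjusted p = 0.00135) ran from -1.96 to -1.71 over the 12 fits without a library. Another gene on its strand ends 386 bases before its start.

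Pou5f1 (chromosome 17, 35506018 to 35510772) had 170, 174 and 120 CPM in ESC and 194, 190 and 177 CPM in EpiLC 4sU libraries. Its total RNA was 948, 950 and 922 CPM in ESCs and 550, 558 and 550 CPM in EpiLCs. ESC 4sU replicate 3 lay below the other 2, and without it the stability change of -1.05 went to -0.88, still with a limma-voom adjusted p under 0.05 but inside the fold threshold. Without both ESC replicate 3 libraries it was -0.90. Scd1 (chromosome 19, 44394451 to 44407709) had 111 to 122 CPM in ESC and 97.8 to 117 CPM in EpiLC 4sU libraries. Its total RNA was 275, 248 and 403 CPM in ESCs, with replicate 3 the highest, and 143, 126 and 128 CPM in EpiLCs. The change of -1.04 ± 0.22 (limma-voom adjusted p = 0.0174) was -0.85 without both ESC replicate 3 libraries.

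Ap4m1 (-1.12) lost its call only without ESC 4sU replicate 1 (-0.93). Nab2 (-1.18), with 27 reads in its lowest EpiLC 4sU library, lost it in 8 of 12 fits with a limma-voom adjusted p up to 0.119. Ap2m1 (-1.04) and Syap1 (-1.01) lost it in 4 and 5 fits and had values as small as -0.88. Of the 22 genes with level 4sU RNA, 10 had a 95% interval of the nascent change inside -0.5 to 0.5 and all 22 had one inside -1 to 1, so that nascent changes of up to 0.85 in size lay within some of these intervals.

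**Figure D3:**
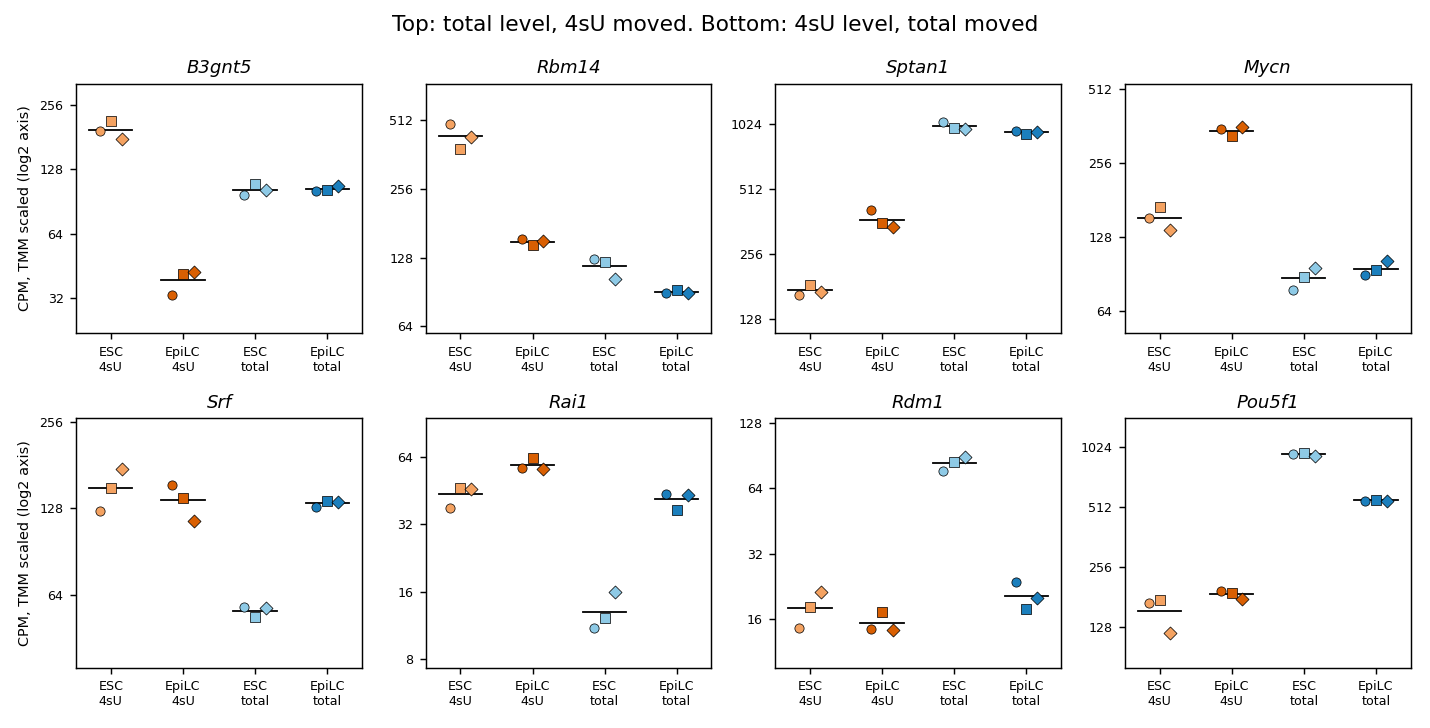
Level of 8 genes in each of the 12 libraries, as TMM-scaled CPM on a log2 axis, with replicates 1, 2 and 3 as circles, squares and diamonds and the mean as a line. In the upper row the EpiLC and ESC points separate in 4sU RNA (B3gnt5 32.9 to 42.3 against 177 to 215 CPM) and stay close in total RNA, and in the lower row they separate in total RNA (Rdm1 17.8 to 23.8 against 76.6 to 89.7 CPM).

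In 4 genes the arms moved in opposite directions. Npr1, a natriuretic peptide receptor, had 11.1, 15.1 and 15.5 CPM in ESC and 6.63, 5.75 and 6.86 CPM in EpiLC 4sU libraries, while its total RNA went from 17.8, 17.5 and 24.6 CPM to 33.3, 30.9 and 27.9 CPM. Lamb2, the laminin beta 2 chain of basement membranes, did the reverse, with 4sU RNA of 6.99, 8.27 and 12.8 CPM in ESCs and 13, 17.3 and 14.6 CPM in EpiLCs, and total RNA of 108, 99 and 134 CPM and 48, 50.7 and 42.6 CPM. In both genes and both assays the ESC and EpiLC libraries did not overlap, for 4sU RNA of Lamb2 only by 12.8 against 13 CPM. The lowest 4sU libraries held 23 reads of Npr1 (EpiLC) and 34 of Lamb2 (ESC). Their nascent changes were -1.09 (-1.69 to -0.50, limma-voom adjusted p = 0.00441) and 0.76 (0.17 to 1.35, limma-voom adjusted p = 0.0314). The stability changes were 1.76 ± 0.31 (limma-voom adjusted p = 0.00912) and -2.01 ± 0.30 (limma-voom adjusted p = 0.00368), and both were called in all 12 fits without a library.

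Mettl27 (1.45) and Zup1 (1.05), which encodes a ubiquitin-chain protease, were the other two and had the form of Npr1 with smaller arms. The nascent change of Mettl27 was -0.62 and its mRNA change 0.84, and it kept its call in all 12 fits. Zup1 changed by -0.52 and 0.53, and its call was lost without ESC 4sU replicate 1, ESC total replicate 1 or EpiLC 4sU replicate 1 (lowest value 0.97).

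The largest class, 33 genes, moved in one direction in both assays, by unequal amounts. Both arms rose for 25 of them, with total RNA rising more than 4sU RNA in 21 and less in 4, and both fell for 8, with total RNA falling less in 3 and more in 5. Contractile genes were among them. Tagln (transgelin), Myl9 (a myosin regulatory light chain), Cnn2 (calponin 2) and Zyx (zyxin), which bind or move actin, were 4 of the 30 genes on the actin and contractile list to be called, all higher. The list as a whole did not lean that way, and its median stability change was -0.12 against 0.01 over all 8519 genes.

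Tagln (chromosome 9, 45929619 to 45936058) had 6.99, 8.63 and 9.27 CPM in ESC and 202, 170 and 149 CPM in EpiLC 4sU libraries. Its total RNA was 3.09, 3.44 and 3.46 CPM in ESCs and 331, 278 and 312 CPM in EpiLCs. Total over 4sU of Tagln was -1.42 to -1.19 (log2) in the ESC cultures and 0.70 to 1.06 in the EpiLC cultures. Levels are relative within an assay, so only the change of this ratio can be read, not its sign. Its nascent and mRNA changes were 4.38 and 6.52, with a stability change of 2.13 ± 0.27 (limma-voom adjusted p = 0.00154). Myl9 (chromosome 2, 156775420 to 156781658) behaved alike at a lower level, with total RNA of 1.98 to 2.87 CPM in ESCs, from 29 reads upward, and 56.3 to 61.3 CPM in EpiLCs, and a stability change of 2.28.

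Cnn2 (chromosome 10, 79988584 to 79996062) had 45.4, 58.1 and 55.1 CPM in ESC and 103, 98.4 and 94.8 CPM in EpiLC 4sU libraries, and 46 to 47.3 CPM and 172 to 200 CPM in total libraries. Zyx (chromosome 6, 42349828 to 42360213) had 68.7 to 77 CPM and 131 to 155 CPM in 4sU libraries and 7.51 to 11.1 CPM and 38.6 to 46 CPM in total libraries. Their stability changes were 1.10 ± 0.14 (limma-voom adjusted p = 0.00135) and 1.15 ± 0.17 (limma-voom adjusted p = 0.00382). All 4 genes and Srf were called in each of the 12 fits without a library, without both ESC replicate 3 libraries and under all 3 other scalings. Tagln2, a close relative of Tagln on the same list, chosen after its value was seen, changed by -0.91 (limma-voom adjusted p = 0.00565).

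**Figure D4:**
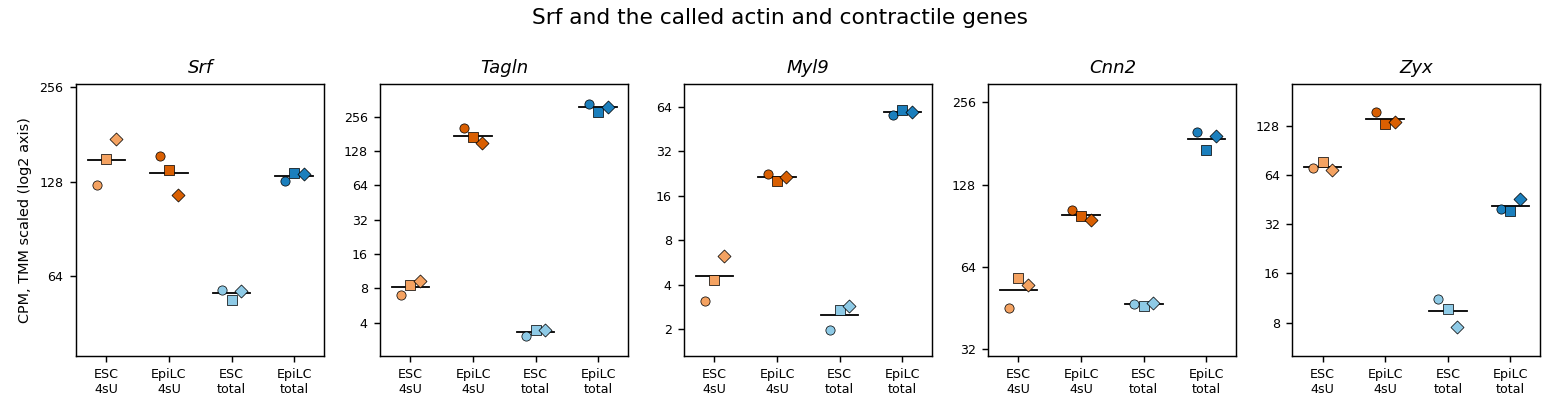
Level of Srf and the 4 called actin and contractile genes in each of the 12 libraries, as TMM-scaled CPM on a log2 axis, with replicates 1, 2 and 3 as circles, squares and diamonds and the mean as a line. In all 5 genes the step from ESC to EpiLC is larger in total RNA (right pair) than in 4sU RNA (left pair), and in Srf the 4sU pair overlaps.

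Genes that Srf protein controls carry the CArG box, a CC, a run of A and T and a GG, near their start. The 300-base promoters (250 before and 50 after the start) of RefSeq, build GRCm38.p6, were searched for it on both strands. It was found in 3 of the 4 promoters searched for Srf, Cnn2, Myl9 and Zyx, the one of Tagln being not analysed here, against 1.63% of all 32851 promoters and 1.24% of the 8724 promoters of the genes followed here. No other called gene had one among the 73 promoters listed, which covered 56 of the 72 called genes. The search was chosen after the values were seen, and its 4 genes were picked because they were called. Uncalled genes of the actin and contractile list were not counted apart, so the box is not shown to mark called genes. A match is a description, not a site, and its part in the stability change was not tested. The 3 promoters are shown because they hold it, with the match in capitals.
Srf, chr17:46556113-46556412, minus strand: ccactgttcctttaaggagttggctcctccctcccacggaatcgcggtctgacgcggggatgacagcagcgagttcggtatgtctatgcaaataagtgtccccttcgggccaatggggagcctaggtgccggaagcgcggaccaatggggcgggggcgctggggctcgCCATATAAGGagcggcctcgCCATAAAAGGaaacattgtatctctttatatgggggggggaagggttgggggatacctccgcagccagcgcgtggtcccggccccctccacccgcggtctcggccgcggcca
Myl9, chr2:156775214-156775513, plus strand: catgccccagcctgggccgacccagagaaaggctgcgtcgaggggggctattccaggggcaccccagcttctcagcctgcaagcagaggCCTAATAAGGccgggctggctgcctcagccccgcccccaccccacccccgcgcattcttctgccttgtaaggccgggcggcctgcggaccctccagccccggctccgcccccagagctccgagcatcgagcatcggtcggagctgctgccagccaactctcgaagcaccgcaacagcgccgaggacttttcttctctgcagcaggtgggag
Cnn2, chr10:79988350-79988649, plus strand: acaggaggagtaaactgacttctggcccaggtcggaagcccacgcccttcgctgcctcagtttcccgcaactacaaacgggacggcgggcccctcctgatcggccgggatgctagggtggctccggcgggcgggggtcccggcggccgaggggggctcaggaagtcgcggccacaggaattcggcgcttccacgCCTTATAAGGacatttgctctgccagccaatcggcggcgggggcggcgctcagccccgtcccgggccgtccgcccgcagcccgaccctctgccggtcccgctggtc

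Apart from the contractile genes, the class held Pigl, a deacetylase of GPI anchor synthesis, whose 4sU RNA fell from 170, 182 and 194 CPM to 10.7, 12.4 and 9.24 CPM. Its total RNA fell less, from 34.7, 34.6 and 32.7 CPM to 9.87, 10.1 and 9.19 CPM, a stability change of 2.25 ± 0.18 (limma-voom adjusted p = 3.95e-05). Sfrp2, a secreted Wnt antagonist, had 4.09 to 7.6 CPM in ESC and 22 to 22.4 CPM in EpiLC 4sU libraries. In total libraries it had 2.67 to 4.54 CPM and 31.2 to 33.9 CPM. Its stability change of 1.21 was lost in 9 of 12 fits (limma-voom adjusted p up to 0.0806).

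Lower stability in this class was led by Cldn7, a tight junction claudin. It had at most 1.91 CPM in the ESC 4sU libraries, with as few as 2 reads, and 56 to 81.7 CPM in the EpiLC 4sU libraries. In total libraries it had 7.44 to 8.1 CPM and 88.8 to 102 CPM. The call (-2.45 ± 0.51, limma-voom adjusted p = 0.0168) rests on those few reads and was lost without ESC 4sU replicate 1 or 2 (limma-voom adjusted p up to 0.0643). Slc17a9, a vesicular nucleotide transporter, had 13.4 to 20.8 CPM in ESC and 3.83 to 6.63 CPM in EpiLC 4sU libraries, and 19.5 to 25.9 CPM and 1.2 to 1.9 CPM in total libraries. Its stability change of -1.96 was called in 9 of 12 fits, and not without EpiLC 4sU replicate 1 or EpiLC total replicate 2 or 3 (limma-voom adjusted p up to 0.0815). Cd68, a lysosomal glycoprotein, fell from 17.7, 22.3 and 20.4 CPM to 16.8, 11.1 and 13.1 CPM in 4sU RNA and from 18.2, 20 and 17.6 CPM to 5.27, 4 and 3.4 CPM in total RNA. All EpiLC libraries were lower, by more in total RNA, and its change of -1.59 ± 0.26 (limma-voom adjusted p = 0.00707) was called in all 12 fits. Another gene on its strand ends 783 bases before its start.

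Pathways were read from 25 gene lists by the adjusted p alone, with no fold threshold, since few list genes reached a change of 1. By that rule 237 (2.78%) of the 8519 genes were higher and 254 (2.98%) lower, against a background of 2.72% and 1.88% (4.6% in either direction). The nascent arm alone carried 167 of these and the total arm alone 188. Without both ESC replicate 3 libraries 1108 were higher and 931 lower, so list counts grew there too. Genes named from here on were chosen after their values were seen, unless they have a call above.

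The list of sterol and fatty acid synthesis had the lowest median of the 25, -0.37 over its 37 genes, and 9 of them were lower. None was higher in limma-voom, edgeR or DESeq2, and 2 were at an unadjusted limma-voom p under 0.05. It stood at -0.45, -0.42 and -0.31 with the other scalings, and at -0.40 without both ESC replicate 3 libraries, where 16 were lower and 2 higher. The general pluripotency list had nearly the same median, -0.36 over 11 genes, with 1 lower (Pou5f1) and 0 higher. That list stood at -0.44 with median-of-ratios factors. Without both ESC replicate 3 libraries it stood at -0.31, with 5 lower and 1 higher. Among the 9 lower genes of the sterol and fatty acid list were genes of sterol synthesis. Cyp51 (lanosterol demethylase), Hmgcs1 (HMG-CoA synthase) and Sc5d (lathosterol oxidase) rose by 1.5, 1.49 and 1.58 in 4sU RNA and by 0.59, 0.61 and 0.67 in total RNA. Cyp51 had 162, 181 and 149 CPM in ESC and 522, 435 and 434 CPM in EpiLC 4sU libraries, and 222, 201 and 187 CPM and 352, 271 and 304 CPM in total libraries. The groups did not overlap in either assay, and the gap was wider in 4sU RNA. Insig1, a brake on sterol synthesis, rose by 0.57 in 4sU RNA with total RNA level (0.08).

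Enzymes of fatty acid synthesis were among the 9 too. Acly (ATP citrate lyase) changed by 0.02 in 4sU and -0.58 in total RNA, Elovl5 (a fatty acid elongase) by 0.01 and -0.46, and Scd2, the second stearoyl-CoA desaturase, by 0.38 (limma-voom adjusted p = 0.00358) and -0.53, beside Scd1 above. The stability changes of the 9 ran from -1.04 to -0.46, with limma-voom adjusted p from 0.00264 to 0.0441.

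Chaperones and the protein turnover machinery also leaned lower by small amounts. Of 61 heat shock proteins and chaperones 7 were lower (median -0.17), of 38 proteasome subunits 4 were lower (median -0.24), and of 59 translation factors 5 were lower and 1 higher (median -0.14). No chaperone or proteasome gene was higher in limma-voom, edgeR or DESeq2, and 1 of each list was at an unadjusted limma-voom p under 0.05. Canx (calnexin), Cct3 and Cct8 (subunits of the TRiC chaperonin) rose by 0.74, 0.52 and 0.43 in 4sU RNA while total RNA changed by -0.02, -0.02 and -0.17. Psmc4, Psmd2 and Psmd4, subunits of the regulatory particle of the proteasome, had level 4sU RNA (0.12, 0.14 and -0.10) and lower total RNA (-0.35, -0.43 and -0.62). Less the median of all genes, the list medians were -0.18, -0.25 and -0.15. Without both ESC replicate 3 libraries 19, 13 and 21 genes of the lists were lower, and 1 proteasome and 2 translation factor genes were higher. With library totals 1 proteasome gene was higher.

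Of the 13 DNA methylation genes 3 were lower, and 2 others were higher at an unadjusted limma-voom p under 0.05. They were the maintenance methylase Dnmt1 (-0.46, limma-voom adjusted p = 0.0339), its partner Uhrf1 (-0.63, limma-voom adjusted p = 0.00503) and the related Uhrf2 (-0.50, limma-voom adjusted p = 0.0371). Each had a different form. Dnmt1 had level 4sU RNA (0.01) and fell in total RNA (-0.45), Uhrf1 fell in both and more in total RNA (-0.62 and -1.24), and Uhrf2 rose by 0.81 in 4sU and 0.31 in total RNA. Leaving out both ESC replicate 3 libraries gave 5 lower and 3 higher of the 13 by the adjusted p.

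Zinc finger genes with a Zfp number, many of them DNA-binding repressors, had 17 higher and 3 lower of 231. The split was 10 and 6 with median-of-ratios factors, 31 and 2 with library totals, and 59 and 10 without both ESC replicate 3 libraries. In 9 of the 17 the nascent arm carried the change and in 6 the total arm. Amino acid and one-carbon genes had 4 higher of 41 (median 0.20), 1 other was lower at an unadjusted limma-voom p under 0.05, and edgeR and DESeq2 each found 1 lower. Asns (asparagine synthetase) and Slc7a1 (a cationic amino acid transporter) fell by 2.48 and 1.91 in 4sU RNA and by 1.93 and 1.12 in total RNA. With median-of-ratios factors 3 of the 41 were higher, and Asns missed the threshold (limma-voom adjusted p = 0.0521). Leaving out both ESC replicate 3 libraries gave 9 higher and 2 lower.

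Regulators of decay itself were also read. Of 63 genes of the decay machinery 1 was higher, Lsm6, part of the ring that marks transcripts for decapping (0.57, limma-voom adjusted p = 0.0242). At an unadjusted p under 0.05 there were 4 higher and 6 lower. Leaving out both ESC replicate 3 libraries gave 8 higher and 8 lower by the adjusted p. Of 19 AU-rich element and Pumilio binding proteins 1 was lower and 0 higher, and 1 was lower and 5 higher without those libraries. The lower gene in both fits was Elavl1, the stabilising protein HuR. It had 118, 131 and 119 CPM in ESC and 253 to 269 CPM in EpiLC 4sU libraries, and 237 to 263 CPM and 258 to 280 CPM in total libraries. The 4sU libraries were far apart and the total libraries overlapped, with a stability change of -0.98 ± 0.10 (limma-voom adjusted p = 0.000497) that fell just short of the call and passed it with median-of-ratios factors (-1.07) and with TMM set per assay (-1.04). Naive (17 genes) and formative (15 genes) pluripotency genes, whose nascent changes had medians of -5.20 and 2.46, had 0 genes past the limma-voom adjusted p for stability. At an unadjusted p under 0.05 each list had 1 higher and 2 lower, edgeR called 1 of either list by adjusted p, and DESeq2 called 1 and 2. Their mRNA changes had medians of -5.72 and 2.71. Leaving out both ESC replicate 3 libraries gave 1 higher and 2 lower naive genes by the adjusted p, 1 of the lower also past a change of 1. It gave 1 higher and 1 lower formative gene.

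**Figure D5:**
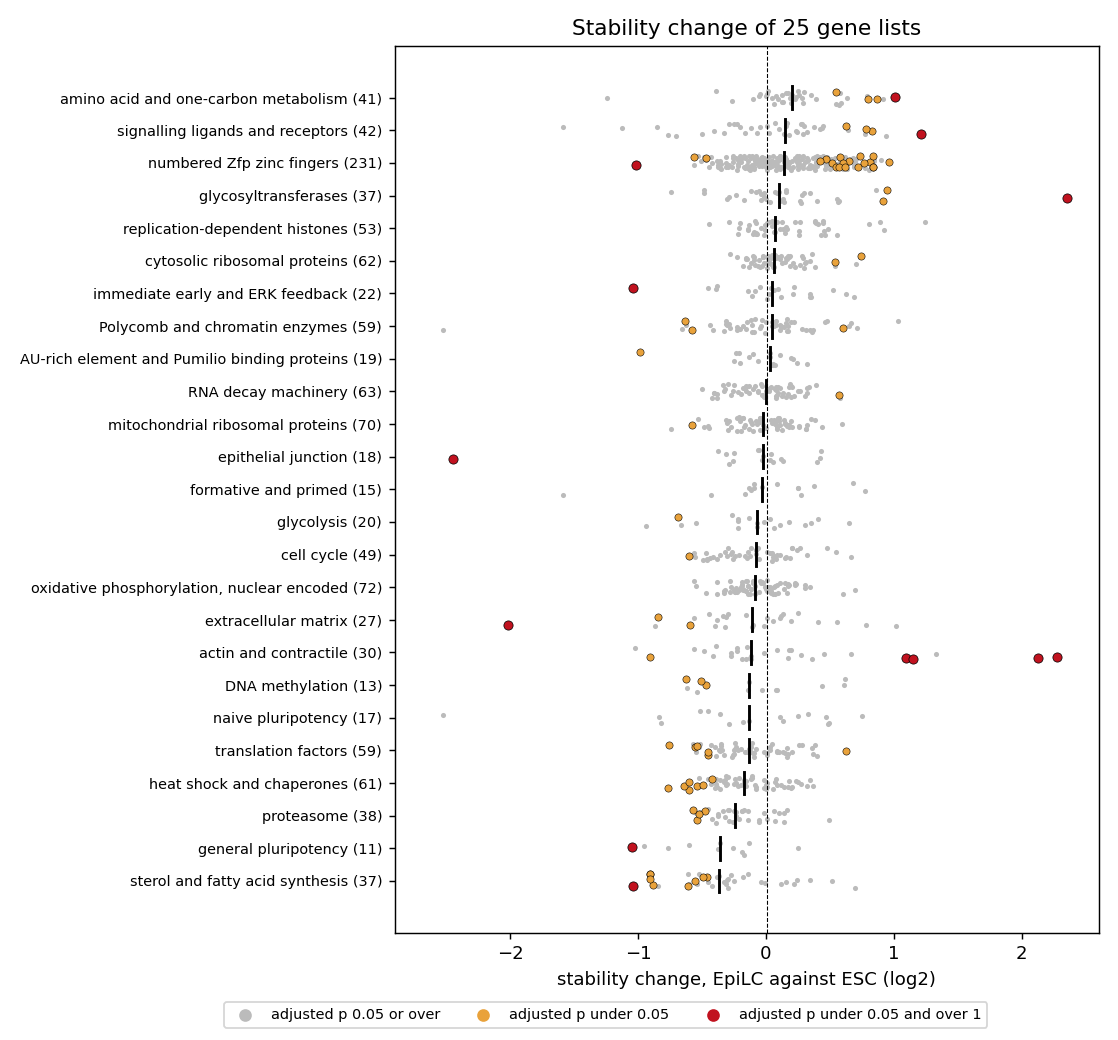
Stability change of the genes on 25 lists (number of genes in brackets), as log2, with 1 point per gene and a bar at the list's median, ordered by median from -0.37 to 0.20. Orange and red points passed the limma-voom adjusted p, red ones also a change of 1, and the dashed line is the median of all 8519 genes at 0.01. Orange points lie on the left in the sterol, chaperone and proteasome lists and mostly on the right in the Zfp list.

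Sequence features known to bear on decay were counted in the classes with 1 level arm. The AU-rich heptamer TATTTAT was searched on the transcript strand of the 3′ UTR of 1 principal transcript per gene (GENCODE M21, build GRCm38), and was found in 3 of the 13 genes with level total RNA and 7 of the 22 with level 4sU RNA, against 31.3% of all genes followed. The site AGCACTT, which pairs with bases 2 to 8 of several microRNAs of pluripotent cells (the clusters miR-290 and miR-302), was found in 1 of 13 and 5 of 22, against 18.1%. MicroRNAs with that seed (in capitals) include the following, from RefSeq, build GRCm38.p6. Their levels were not measured here.
mmu-miR-294-3p: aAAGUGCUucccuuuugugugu
mmu-miR-291a-3p: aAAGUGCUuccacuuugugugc
mmu-miR-302b-3p: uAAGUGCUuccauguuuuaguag

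One window per element and class is given with the element in capitals, to show the sites behind these counts in genes described above.
B3gnt5, AU-rich, chr16:19772361-19772389, plus strand: aaaatgttaaaTATTTATattgtttgagt
Srf, AU-rich, chr17:46549021-46549049, minus strand: acggcaccactTATTTATtgttgcctttt
Mycn, seed match, chr12:12936129-12936157, minus strand: ctgcaccttagAGCACTTtgaaatacctc
Rai1, seed match, chr11:60198362-60198390, plus strand: ggacatggctcAGCACTTggcatggatct

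The genomic span of the principal transcript, which can be shorter than the gene, varied widely within both classes. In 10 of 13 and 15 of 22 genes it was under the median of all genes followed. The median span was 13081 bases with level total RNA and 12825 bases with level 4sU RNA, against 25070 bases for all genes followed. The median number of exons was 6 and 7 against 10. The 33 genes of the class that moved one way had a median span of 17018 bases and 7 exons. The median 3′ UTR was 1054 and 789.5 bases in the first 2 classes and 1179 bases over all. With the longest transcript per gene in place of the principal one these medians were 1057, 789.5 and 1315.5 bases.

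The limit of 10 CPM was not a natural break. Just inside it lay Neurl1a, Eci2 and B3galnt1, with lower means of 10.005, 10.0104 and 10.0236 CPM and stability changes of 0.56, 0.21 and 0.27. Just outside lay Paqr3, Sdhaf1 and Atat1, at 9.9984, 9.9973 and 9.9881 CPM, with 0.99, -0.16 and -1.12. The 3793 protein-coding genes under it had a median SE of 0.422 against 0.173 for those above, and 70 higher and 19 lower calls.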

How the data were processed

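Stranded single-end reads of 12 libraries (3 each of ESC 4sU, ESC total, EpiLC 4sU and EpiLC total) were trimmed by the authors with cutadapt 1.14 and mapped to mm10 with STAR 2.5.3a, per the labels and the study's methods. The deposited values are raw counts of uniquely mapped reads per GENCODE M14 gene, made by the authors with strand-aware featureCounts 1.5.3. Of 51467 genes, 51274 (99.6%) matched GENCODE M21, which gave gene types, coordinates and transcripts. ERCC spike-in entries (92) held no reads and were left out, so levels are relative within an assay.

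The 14731 genes that reached 3 CPM in 3 or more libraries were fitted with limma-voom (limma 3.58.1, edgeR 4.0.16, R 4.3.3) on TMM-scaled counts, with 1 mean per group, and p-values were adjusted (Benjamini-Hochberg) over all genes kept. The study's methods give a limma model of assay, cell type and their interaction with this filter, while voom weights, TMM scaling and the group-mean form were chosen here. CPM per library are TMM-scaled, and the limit of 10 CPM used library totals. Group intervals are 95% intervals of the fit. The scripts were tested on simulated counts first. Depth was lower in 4sU libraries (median 4169803 reads) than in total libraries (median 10971213), and replicates differed by more than counting error in both.

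Named genes were the 7 largest stability changes per direction in each class with 1 level arm and the 3 largest per direction in the others, among genes whose cultures did not overlap, plus called genes on the 25 lists. Aacs and genes named from the adjusted p alone were chosen after their values were seen. The members, classes and lists were chosen with earlier results of these data known. Alternatives were edgeR and DESeq2 1.42.0, 3 scalings, no filter, other thresholds, limma treat, quality weights, a term for each culture, and leaving out each library or both ESC replicate 3 libraries. One gene of the lists is not reported here by name.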

Additional observations from a re-analysis of the deposited data

Results flagged for a closer look

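The stability change is itself a test of whether the mRNA change and the nascent change differ from each other. Every value here is listed because that difference passed it: 47 genes were higher and 25 lower in EpiLCs. No explanation was tested.

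With total RNA level, the values (log2) were 2.36 for B3gnt5, 1.16 for Rbm14, 1.15 for AU041133, 1.05 for Fam122b and 1.01 for Ttyh1. In the other direction they were -1.18 for Sptan1, -1.11 for Tapbp, -1.04 for Mycn, -1.04 for Myo1c, -1.03 for Serpinh1, -1.01 for Zfp7 and -1.01 for Hes1.

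With 4sU RNA level they were 1.36 for Srf, 1.26 for Rai1, 1.21 for Dsel, 1.14 for Vldlr, 1.13 for Pfn2, 1.12 for Fgfrl1, 1.08 for Shank3 and 1.01 for Slc43a1. Downward they were -1.85 for Rdm1, -1.18 for Nab2, -1.12 for Ap4m1, -1.05 for Pou5f1, -1.04 for Scd1, -1.04 for Ap2m1 and -1.01 for Syap1.

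With both arms moving they were 2.28 for Myl9, 2.25 for Pigl, 2.13 for Tagln, 1.21 for Sfrp2, 1.15 for Zyx and 1.10 for Cnn2, and -2.45 for Cldn7, -1.96 for Slc17a9 and -1.59 for Cd68. In the genes whose arms opposed each other they were 1.76 for Npr1, 1.45 for Mettl27, 1.05 for Zup1 and -2.01 for Lamb2.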

How the results depend on the processing

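No value reversed, which for changes past 1 the scalings could not have brought about. All 40 genes named by rule kept their call with edgeR, 34 with DESeq2, 32 with quality weights and 29 with no expression filter. Of all 72 calls edgeR kept 67 and DESeq2 55, and Aacs, named outside the rule, lost its call with edgeR. The counts of calls moved more, and the cause was not tested except where an alternative tests fewer or more genes by construction. DESeq2 gave 45 lower, median-of-ratios scaling 28 higher, library totals 12 lower, and no filter 15 higher, 43 lower and 21 that moved one way in both assays. A test against a change of 1 (limma treat) left 2 higher and 0 lower (10 and 8 at an unadjusted p under 0.05), with 1 of level total RNA, 0 of level 4sU RNA and 1 that moved one way. Quality weights gave 78 higher, 21 with total RNA level and 53 moving one way. Without both ESC replicate 3 libraries there were 87 higher and 38 lower, with 26, 41 and 50 in the same 3 classes, and by adjusted p alone 237 and 254, with 167, 188 and 90. A limit of 5 CPM gave 78 higher, 35 with 4sU RNA level and 53 moving one way, and a limit of 20 CPM gave 19, 10 and 15. Asking the moving arm to pass a change of 1 left 7 genes with total RNA level. By the nascent and mRNA calls alone, 45 genes (0.528%) had total RNA level and 64 (0.751%) had 4sU RNA level. These include genes with and without a stability call, and their share over all genes kept was not counted.

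Leaving out 1 library gave 31 to 83 higher and 15 to 35 lower. The smallest counts came without ESC total replicate 2 (31) and EpiLC total replicate 2 (15, and 16 without EpiLC 4sU replicate 1), and the largest of every kind without ESC total replicate 3. There were 6 to 21 genes with total RNA level (fewest without EpiLC total replicate 2), 14 to 38 with 4sU RNA level (fewest without EpiLC 4sU replicate 1) and 20 to 51 moving one way (fewest without EpiLC 4sU replicate 2, and 21 without EpiLC 4sU or total replicate 3). A replicate block with a term for each culture gave 63 higher and 33 lower, with 15, 26 and 50 in those classes, and lost the call of Syap1 (-0.99). The 4sU and total libraries of one number deviated together by 0.163, 0.296 and 0.408 in ESCs and 0.075, 0.029 and 0.023 in EpiLCs. Of the 6 4sU libraries 5 correlated best with the total library of their own number. Read from the total side, ESC total replicate 1 went best with ESC 4sU replicate 2 (0.291 against 0.163). EpiLC total replicate 2 went best with EpiLC 4sU replicate 3 (0.049 against 0.029). Extracts were divided between the assays, but no label ties a number to an extract, so whether numbers pair the libraries is not known. At 3 libraries a group, with 4sU libraries as small as 3097693 reads, changes near the threshold were decided by single libraries.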
